A study of Mus musculus with 4 samples.

Results

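The interferon-induced transmembrane genes Ifitm1, Ifitm2 and Ifitm3 were followed in 4 sorted cell populations of the mouse aorta-gonad-mesonephros (AGM), taken at embryonic day 11. They are 3 of the 51205 genes in the deposited expression table and were chosen by measured values of these same libraries, so their levels and differences are given as a description. Bulk RNA was sequenced from 1 library per population, which gives no replicate check and no test. Every population was NG2-, PDGFRβ- and CD31+, which leaves out pericytes. Endothelial cells (EC) were ckit-CD45- without Runx1(GFP), and hemogenic endothelial cells (HEC), from which blood cells arise, were the same but for Runx1(GFP). The cells of intra-aortic hematopoietic clusters (IAHC) were ckit+, were not gated on CD45 and were split into Runx1(GFP)+ cells (Runx1+ IAHC) and Runx1(GFP)- cells (Runx1- IAHC). The labels give a WT genotype for all 4 libraries, and every embryo came from a line in which GFP is read out from the Runx1 locus. By the study's methods, embryos with 1 reporter copy and embryos with 2 were pooled. Libraries were made from part of the cell lysate, and by the study's sort counts EC gave the most cells and Runx1- IAHC the fewest.

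IFITM proteins are small membrane proteins of the cell surface and of endosomes that hinder the fusion of enveloped viruses with the cell membrane. Interferons, which act through the receptors IFNAR and IFNGR and on to transcription factors such as the IRF family, raise their expression in many cell types, while stem and germ cells carry IFITM transcripts without interferon. In the mouse, Ifitm3 (fragilis) and Ifitm1 are also known from primordial germ cells, which migrate to the forming gonads of the AGM.

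The level of a gene is given in TPM, reads per exon length scaled to the library. Intervals are exact 95% Poisson or Clopper-Pearson intervals on the reads recovered from the TPM values, and they cover counting error only. Reads recovered for genes with whole numbers of reads ranged from 12420598 in EC to 15917924 in Runx1- IAHC, so the Ifitm genes rest on 842 to 14948 reads each. Checked against their markers, EC carried 19 of 19 endothelial genes at 10 TPM or more, and Runx1+ IAHC carried 16 of 17 hematopoietic genes. HEC carried 13 of 19 endothelial and 14 of 17 hematopoietic genes, beside 55985 TPM of summed megakaryocyte and platelet genes, against 94.0 to 436 TPM in the other 3 libraries. Erythroid genes summed to 48530 TPM in EC and 25948 TPM in HEC, against 594 TPM in Runx1+ IAHC and 596 TPM in Runx1- IAHC. Runx1- IAHC had 18 of 19 endothelial genes but 5 of 17 hematopoietic genes at that level, and no read of Ptprc, which encodes CD45. It had 17 of 20 primordial germ cell genes at 10 TPM or more, summed to 7532 TPM, against 731 TPM in EC, 47.1 TPM in Runx1+ IAHC and 21.2 TPM in HEC. This list includes Kit, the gene of the ckit sort marker, at 62.1 TPM in Runx1- IAHC and 34.5 TPM in Runx1+ IAHC. Fewer cells of a type and less RNA per cell cannot be told apart in bulk libraries.

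The 3 genes lie side by side on mouse chromosome 7 (GRCm38), within 55.9 kb. Ifitm2 (ENSMUSG00000060591) is at chr7:140954837-140955987 on the minus strand, Ifitm1 (ENSMUSG00000025491) at chr7:140967221-140969825 on the plus strand, and Ifitm3 (ENSMUSG00000025492) at chr7:141009586-141010770 on the minus strand. Their transcripts are alike. The longest annotated transcripts of Ifitm2 and Ifitm3 were identical at 70.9% of aligned columns, those of Ifitm1 and Ifitm3 at 71.4%, and those of Ifitm1 and Ifitm2 at 69.4%. The longest run of bases shared by Ifitm2 (chr7:140955718-140955786) and Ifitm3 (chr7:141010445-141010513), and that shared by Ifitm1 (chr7:140968351-140968414) and Ifitm3 (chr7:141010421-141010484), are shown because they lie in coding sequence and exceed the read length of 51 bases. A read that falls wholly within such a run cannot be placed by its sequence. Capitals mark the 40 bases that all 3 genes share.
Ifitm2 and Ifitm3: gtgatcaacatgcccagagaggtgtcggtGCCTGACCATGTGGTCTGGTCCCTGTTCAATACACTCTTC
Ifitm1 and Ifitm3: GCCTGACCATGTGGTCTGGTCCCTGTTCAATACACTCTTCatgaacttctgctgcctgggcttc
Of all 51-base windows of its annotated transcripts, Ifitm1 shared 4.74% with transcripts of another gene, Ifitm3 9.71% and Ifitm2 48.3%. For Ifitm2, 218 of its 605 windows were shared with Gm45717, a gene annotated across Ifitm5 and Ifitm2, and 268 of the 655 exonic bases of Ifitm2 lie in an exon of that gene. Union counting, which the authors used, drops reads on bases of more than 1 gene, and Gm45717 itself held at most 0.397 TPM in any library.

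The windows upstream of the RefSeq start sites (build GRCm38.p6) are shown because the members are named for their response to interferon. Each window held 250 bases before and 50 bases after the start, and all 3 genes were matched. It was searched on both strands for GAAANNGAA, the core of the interferon-stimulated response element (ISRE), for the gamma-activated site TTCNNNGAA, and for TGTGGT, a RUNX core sequence. The part of each window before the first annotated exonic base within it is printed 5′ to 3′ on the strand of the gene. It runs from chr7:140967826-140968027 (plus) for Ifitm1, chr7:140955988-140956211 (minus) for Ifitm2 and chr7:141010771-141010994 (minus) for Ifitm3. For Ifitm1 this stretch lies inside the annotated gene, which begins farther upstream at chr7:140967221. Sequence around that upstream end was not searched. Capitals mark an ISRE core.
Ifitm1: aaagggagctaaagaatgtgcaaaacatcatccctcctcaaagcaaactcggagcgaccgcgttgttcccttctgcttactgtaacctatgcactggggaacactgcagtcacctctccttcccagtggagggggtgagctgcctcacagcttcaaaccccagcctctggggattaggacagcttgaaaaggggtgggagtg
Ifitm2: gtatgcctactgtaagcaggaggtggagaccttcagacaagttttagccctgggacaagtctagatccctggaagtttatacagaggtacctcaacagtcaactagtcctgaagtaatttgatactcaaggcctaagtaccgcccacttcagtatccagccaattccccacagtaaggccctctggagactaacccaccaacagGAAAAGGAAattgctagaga
Ifitm3: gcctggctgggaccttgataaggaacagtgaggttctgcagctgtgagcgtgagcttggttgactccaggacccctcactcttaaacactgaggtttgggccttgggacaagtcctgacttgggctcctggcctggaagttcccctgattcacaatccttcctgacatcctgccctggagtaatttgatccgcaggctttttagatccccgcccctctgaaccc
Ifitm2 had an ISRE core whose first base lay at -46 from the start. Ifitm3 had a pair of them after the start, beginning at 3 and 20, in the first 30 bases from the RefSeq start (chr7:141010715-141010744, minus strand), where capitals again mark the cores.
Ifitm3, first bases: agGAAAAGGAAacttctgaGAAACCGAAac
A gamma-activated site beginning at 14 in Ifitm3 overlapped the second of these cores. No ISRE core or gamma-activated site was found in the window searched for Ifitm1, which covers its RefSeq start only, and no RUNX core in any of the 3 windows. Of 32851 such windows over all genes, 8.56% held an ISRE core, 8.30% a gamma-activated site and 16.8% a RUNX core. A match describes the letters only.

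Ifitm1 was the member that differed most between populations. It was at 91.4 TPM in EC (95% interval 85.2 to 97.7), 238 TPM in HEC (229 to 247), 1128 TPM in Runx1- IAHC (1107 to 1148) and 1342 TPM in Runx1+ IAHC (1320 to 1363). Both ckit+ libraries were high and both ckit- libraries were low. Counting intervals of neighbours in this order did not overlap, but they leave out the spread between samples, which is unknown. How many other genes separate in this way was not counted. By level Ifitm1 stood at rank 1346 of 51205 genes in EC and rank 744 in HEC, but at rank 84 in Runx1+ IAHC and rank 78 in Runx1- IAHC.

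Ifitm3, the best studied antiviral member, had a different order. It was at 483 TPM in EC (465 to 501), 508 TPM in Runx1+ IAHC (492 to 525), 521 TPM in HEC (504 to 537) and 2172 TPM in Runx1- IAHC (2136 to 2209). A single library, Runx1- IAHC, was high, where Ifitm3 stood at rank 23 of all genes. That library came from the fewest sorted cells, and its interval does not cover the sampling of cells. The counting intervals of EC and Runx1+ IAHC overlapped, as did those of Runx1+ IAHC and HEC.

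Ifitm2 was the most even of the 3. It was at 396 TPM in EC (379 to 412), 445 TPM in Runx1+ IAHC (429 to 461), 486 TPM in HEC (470 to 503) and 834 TPM in Runx1- IAHC (811 to 857). The order was that of Ifitm3, and the high library was again Runx1- IAHC, with ranks from 130 in that library to 437 in Runx1+ IAHC.

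**Figure D1:**
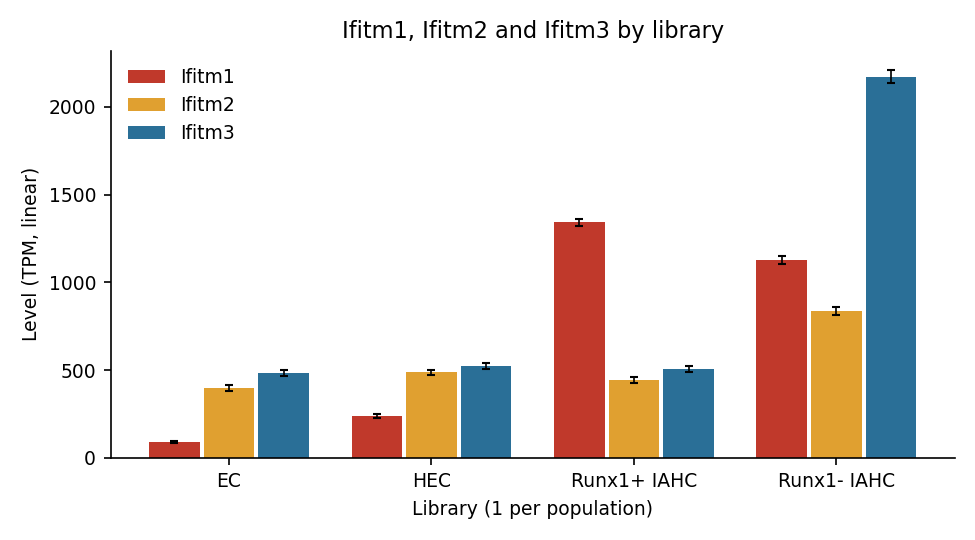
Levels of Ifitm1, Ifitm2 and Ifitm3 in TPM on a linear axis, in 1 library per population, with bars for the value and error bars for the 95% counting interval. Ifitm1 reached 1128 and 1342 TPM in the ckit+ libraries, while Ifitm3 stood out in Runx1- IAHC at 2172 TPM.

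The other family members were nearly silent. Ifitm5, known for its expression in bone-forming cells, was at 0.141 to 1.797 TPM, Ifitm6 at most 3.93 TPM and Ifitm10 at most 2.43 TPM. No read was recovered of Ifitm6 in EC, of Ifitm10 in Runx1+ IAHC or of Ifitm5 in Runx1- IAHC. Ifitm7 was not analysed here.

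The summed level of the 3 genes was 970 TPM in EC, 1245 TPM in HEC, 2295 TPM in Runx1+ IAHC and 4134 TPM in Runx1- IAHC, or 0.101%, 0.130%, 0.241% and 0.439% of all TPM. Its make-up differed too. Ifitm1 took 9.43% of the summed TPM in EC, 19.1% in HEC, 27.3% in Runx1- IAHC and 58.5% in Runx1+ IAHC. Ifitm3 took 49.8% in EC, 41.8% in HEC, 22.2% in Runx1+ IAHC and 52.5% in Runx1- IAHC, and Ifitm2 took 40.8%, 39.1%, 19.4% and 20.2%. Runx1+ IAHC was thus the library in which Ifitm1 was the leading member, and Ifitm3 led in the other 3.

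**Figure D2:**
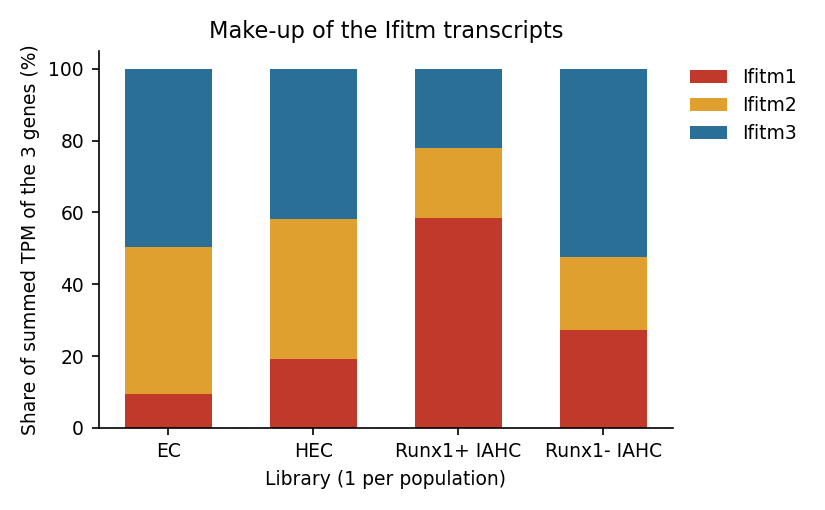
Share of each gene in the summed TPM of Ifitm1, Ifitm2 and Ifitm3, in percent, for each library. The Ifitm1 part of the bar grows from 9.43% in EC to 58.5% in Runx1+ IAHC.

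Ratios within a library do not depend on how libraries are scaled to each other. The ratio of Ifitm1 to Ifitm3 was 0.189 in EC (0.175 to 0.204), 0.457 in HEC (0.435 to 0.481), 0.519 in Runx1- IAHC (0.506 to 0.532) and 2.64 in Runx1+ IAHC (2.54 to 2.74). HEC and Runx1- IAHC were close to each other in this ratio, although their summed levels were 3.32-fold apart. The ratio of Ifitm2 to Ifitm3 was 0.819 in EC, 0.934 in HEC and 0.874 in Runx1+ IAHC, and 0.384 in Runx1- IAHC (0.372 to 0.397). Levels between genes depend on the length used. Were all Ifitm2 reads to come from the 387 bases that it does not share with Gm45717, its level would be 1.69-fold higher in every library, and Ifitm2 would lead the family in EC (53.8%) and HEC (52.0%). The length used for Ifitm1, 1094 bases over all exons, is 1.95 times its shortest annotated transcript of 560 bases. With that transcript as the length, Ifitm1 would exceed Ifitm3 in Runx1- IAHC, at 42.3% against 41.7%. Ifitm1 led in Runx1+ IAHC under both lengths, and differences of 1 gene between libraries are the same under both.

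HEC were compared with EC, the libraries gated as ckit- with and without Runx1(GFP), which by their markers also differed in cell make-up. Ifitm1 was 2.61-fold higher in HEC (2.41 to 2.82), Ifitm2 1.23-fold (1.16 to 1.30) and Ifitm3 1.08-fold (1.03 to 1.13). By the rule of size, which counts genes at least 4-fold apart in log2(TPM + 1) provided the higher of the 2 libraries reached 10 TPM, 0 of the 3 genes were higher or lower, beside 8.87% of 7793 genes higher and 9.24% lower. The median difference of all genes was 0.12 on the log2 scale, against which Ifitm1 lay 1.26 higher and Ifitm3 level. The 1.08-fold difference of Ifitm3 turned round under other scalings of the libraries. Of 19 endothelial genes compared, 15 lay 4-fold or more below EC in HEC (median log2 difference -3.03), and of 14 hematopoietic genes, 12 lay as far above (median 4.73). Megakaryocyte and platelet genes were higher for 13 of 13, and germ cell genes lower for 6 of 6, or for 3 of 6 with pseudocount 5. The part of these genes in the Ifitm differences was not tested.

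Runx1+ IAHC were compared with Runx1- IAHC for the same contrast within the ckit+ clusters. Ifitm1 was 1.19-fold higher in Runx1+ IAHC (1.16 to 1.22), whereas Ifitm2 was 1.88-fold lower (1.79 to 1.965) and Ifitm3 was 4.27-fold lower (4.12 to 4.44). Ifitm3 was 1 of the genes at least 4-fold lower, beside 17.5% of 8726 genes lower and 5.6% higher. The median gene was itself lower by 0.53 on the log2 scale, and relative to it Ifitm1 was 0.78 higher, Ifitm2 0.38 lower and Ifitm3 1.56 lower. When libraries were scaled by median ratios, the log2 difference of Ifitm3 was -1.98, just short of 4-fold. Primordial germ cell genes moved with this difference, 15 of 17 being at least 4-fold lower in Runx1+ IAHC, with a median of -5.58 on the log2 scale, and Runx1+ IAHC had no read of Dppa3, Dppa5a, Utf1 or Alpl. Endothelial genes were lower too (14 of 18) and hematopoietic genes higher (14 of 16). Their part in the lower Ifitm2 and Ifitm3 was not tested.

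Runx1+ IAHC were compared with HEC, the ckit+ and ckit- libraries with Runx1(GFP), which by their markers also differed in cell make-up. Ifitm1 was 5.64-fold higher in Runx1+ IAHC (5.41 to 5.87), which placed it among the 2.79% of 7279 genes at least 4-fold higher, while 6.22% were lower. Ifitm2 was 1.09-fold lower (1.04 to 1.15), and the ratio of Ifitm3 was 0.977 with an interval of 0.932 to 1.02 that includes no difference. Of the 3 genes, Ifitm1 alone was past 4-fold here, under all 5 settings of scaling, pseudocount and minimum level. Platelet genes differed strongly between these libraries, 12 of 13 being lower in Runx1+ IAHC, as did erythroid genes with 8 of 9 lower. Germ cell genes were near the bottom of both libraries, with 1 of 20 at 10 TPM or more in each. In Runx1+ IAHC that gene was Kit, the sort marker, at 34.5 TPM. The part of the platelet and erythroid genes in the Ifitm1 difference was not tested.

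Runx1- IAHC were compared with EC, both without Runx1 reporter signal. Ifitm1 was 12.3-fold higher in Runx1- IAHC (11.5 to 13.3), Ifitm3 4.50-fold (4.32 to 4.69) and Ifitm2 2.11-fold (2.01 to 2.22). Ifitm1 and Ifitm3 were at least 4-fold higher, as were 20.9% of 8936 genes, while 6.39% were lower. The median gene was 0.71 higher on the log2 scale, relative to which Ifitm1 was 2.90 higher, Ifitm3 1.46 and Ifitm2 0.36. Under median-ratio scaling the log2 difference of Ifitm3 was 1.66, short of 4-fold, and that of Ifitm1 was 3.10. Of 17 germ cell genes compared, 14 were past 4-fold higher, with a median log2 difference of 3.90. Kit, on which these libraries were gated, was among the 14, at 2.56. Of 10 erythroid genes, 7 lay 4-fold or more below EC (median -4.21), as did 4 of 19 endothelial genes. The part of these genes in the Ifitm differences was not tested. Across the remaining pairs, Ifitm1 was 14.7-fold higher in Runx1+ IAHC than in EC (13.7 to 15.8), a pair in which 5.37% of all genes were past 4-fold higher. In Runx1- IAHC against HEC, Ifitm1 was 4.74-fold and Ifitm3 4.17-fold higher, a pair in which 20% of all genes were. The comparisons share libraries and are not independent of each other.

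**Figure D3:**
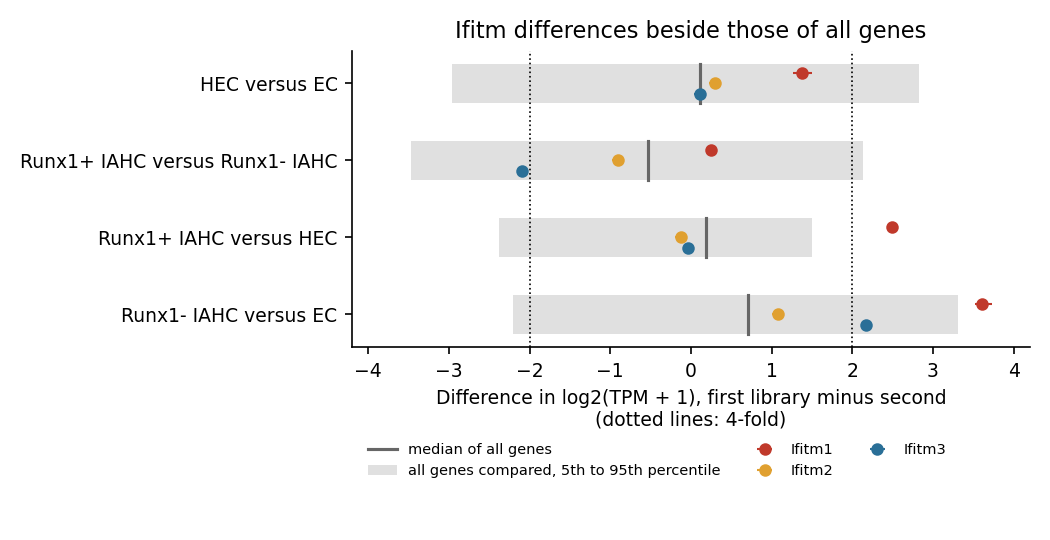
Difference in log2(TPM + 1) of each Ifitm gene in the 4 comparisons, with 95% counting intervals, beside the 5th to 95th percentile (grey) and the median of all genes compared. Ifitm1 lies beyond the grey bar in Runx1+ IAHC against HEC (2.49) and in Runx1- IAHC against EC (3.61), and the other points lie within it.

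Read-sharing copies of the family were counted separately. Processed pseudogenes, reverse-transcribed copies scattered over the genome, shared 51-base windows with the members in 6 cases, 1 nearest to Ifitm1 and 5 to Ifitm2. Gm7676 on chromosome 8 shared 36 windows with Ifitm1 and 28 with Ifitm3. It was at 24.5 TPM in EC, 51.9 TPM in HEC, 202 TPM in Runx1+ IAHC and 254 TPM in Runx1- IAHC, so that it was high in both ckit+ libraries like Ifitm1, and highest in Runx1- IAHC like Ifitm3. Its reads came to 4.38 to 7.72 per 100 reads of Ifitm1. Gm11951 on chromosome 11 shared 88 windows with Ifitm2 and was at 116 TPM in EC, 152 TPM in HEC, 148 TPM in Runx1+ IAHC and 267 TPM in Runx1- IAHC. Its reads kept to 19.2 to 21.8 per 100 reads of Ifitm2, and those of Gm45432 to 15.1 to 16.1. Gm45308, Gm2840 and Gm8865 held 2.01 to 4.54 reads per 100 of Ifitm2. Reads of a parent and of its copies cannot be told apart where windows are shared. When the copies' reads were added to the parent, the log2 differences of Ifitm1 and Ifitm2 kept their direction in the 4 comparisons, with that of Ifitm1 in Runx1+ against Runx1- IAHC at 0.22. When the reads of Gm7676 were added to Ifitm3 instead, its difference in Runx1+ against Runx1- IAHC was -1.92, short of 4-fold, and that in Runx1+ IAHC against HEC turned from -0.03 to 0.15.

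**Figure D4:**
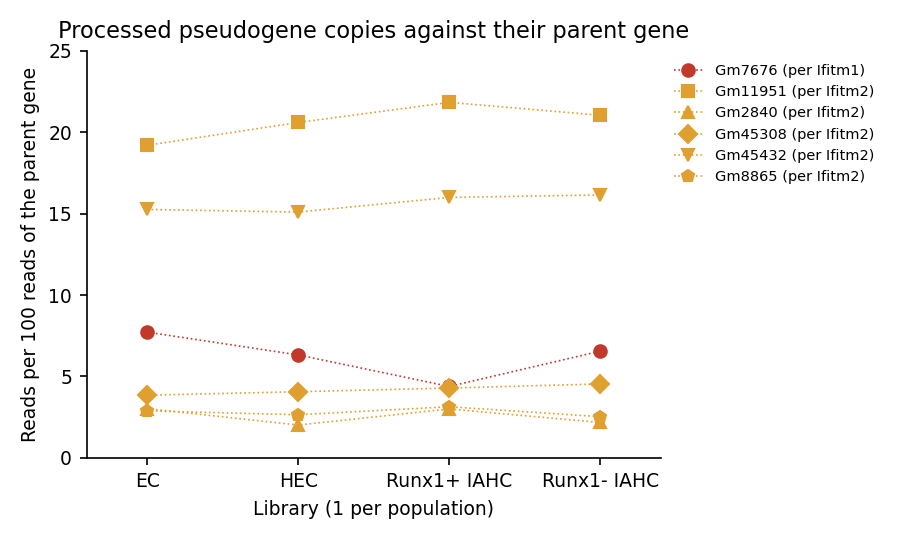
Reads of 6 processed pseudogenes per 100 reads of the Ifitm gene with which each shares most windows, in each library. The copies of Ifitm2 stay within narrow bands, 19.2 to 21.8 for Gm11951 and 15.1 to 16.1 for Gm45432, and Gm7676 varies from 4.38 to 7.72 per 100 reads of Ifitm1.

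The interferon pathway was read from gene lists, starting with the ligands. Of 17 interferon genes matched, 15 had no read in EC, 16 in HEC, 17 in Runx1+ IAHC and 16 in Runx1- IAHC. Receptor chains were at lower levels than Ifitm1, Ifitm2 and Ifitm3 in every library. Ifnar1, a chain of the type I receptor, was at 18.4 TPM in EC, 5.11 TPM in HEC, 7.98 TPM in Runx1+ IAHC and 26.0 TPM in Runx1- IAHC. Ifnar2, its partner, was at 15.6, 10.4, 29.0 and 3.66 TPM in the same order, so that it was highest where Ifitm1 was highest and lowest where Ifitm3 was highest. Ifngr1, the ligand-binding chain of the interferon gamma receptor, was at 37.8, 13.3, 79.2 and 72.9 TPM. Of the downstream factors, Irf1 was at 4.15 TPM in EC, 1.13 TPM in HEC, 9.41 TPM in Runx1+ IAHC and 49.8 TPM in Runx1- IAHC. In HEC against EC, 0 of 4 receptors, 0 of 3 signalling genes and 0 of 3 nucleic acid sensors were at least 4-fold apart, and 1 of 4 feedback inhibitors (Ptpn6, the phosphatase SHP-1) was higher, beside 8.87% of all genes higher and 9.24% lower. In Runx1+ against Runx1- IAHC, 1 of 4 receptors (Ifnar2) and 1 of 4 feedback inhibitors (Irf2bp2) were higher, 1 of 4 signalling genes (Irf1) was lower, and 0 of 3 sensors were apart, beside 5.6% of all genes higher and 17.5% lower. In Runx1+ IAHC against HEC, 1 of 3 receptors (Ifngr1) and 1 of 4 signalling genes (Irf5) were higher. There 1 of 3 sensors (Mavs) was lower and 0 of 4 feedback inhibitors were apart, beside 2.79% of all genes higher and 6.22% lower. In Runx1- IAHC against EC, 0 of 4 receptors and 0 of 3 sensors were apart, and 1 of 3 signalling genes (Irf1) was higher. Of 4 feedback inhibitors, 1 (Ptpn6) was higher and 1 (Irf2bp2) lower, beside 20.9% of all genes higher and 6.39% lower. Lists of 3 or 4 genes are too short to set apart from these shares.

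The type I interferon-stimulated genes of the list used here did not share the high levels of the Ifitm genes. Of 30 matched, 2 were at 10 TPM or more in EC, 4 in HEC, 2 in Runx1+ IAHC and 4 in Runx1- IAHC, and their highest member was Trim25 at 15.6 TPM in EC, Isg20 at 27.6 TPM in HEC, and Ifi35 at 27.5 and 28.4 TPM in Runx1+ and Runx1- IAHC. Each Ifitm gene lay above all 30 in every library. Some genes placed in the other interferon and antiviral lists were well above these 30. B2m was at 715 TPM in EC, above each Ifitm gene there, Ly6e at 307 TPM in Runx1+ IAHC and Bst2 at 192 TPM in Runx1- IAHC. Isg15, which encodes a ubiquitin-like protein, was at most 1.01 TPM, and Irf7, the main amplifier of the type I response, at most 1.53 TPM. Runx1- IAHC, where Ifitm3 was highest, had no read of 14 of the 28 genes whose reads were recovered, against 7 in EC, 7 in HEC and 1 in Runx1+ IAHC. Over the whole table, Runx1- IAHC also had the fewest genes with a read, 17732 against 18827 to 21850. Few genes of the list reached the minimum for a comparison. At least 4-fold higher or lower were 2 and 0 of 5 in HEC against EC, 0 and 1 of 4 in Runx1+ against Runx1- IAHC, 0 and 2 of 4 in Runx1+ IAHC against HEC, and 0 and 0 of 4 in Runx1- IAHC against EC. Over all genes the shares in that order were 8.87% and 9.24%, 5.6% and 17.5%, 2.79% and 6.22%, and 20.9% and 6.39%. So few genes cannot be set apart from these shares. Isg20 and Uba7 were the higher pair in HEC, and Rsad2 (viperin) was the gene lower in Runx1+ than in Runx1- IAHC, at 0.657 against 12.1 TPM.

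**Figure D5:**
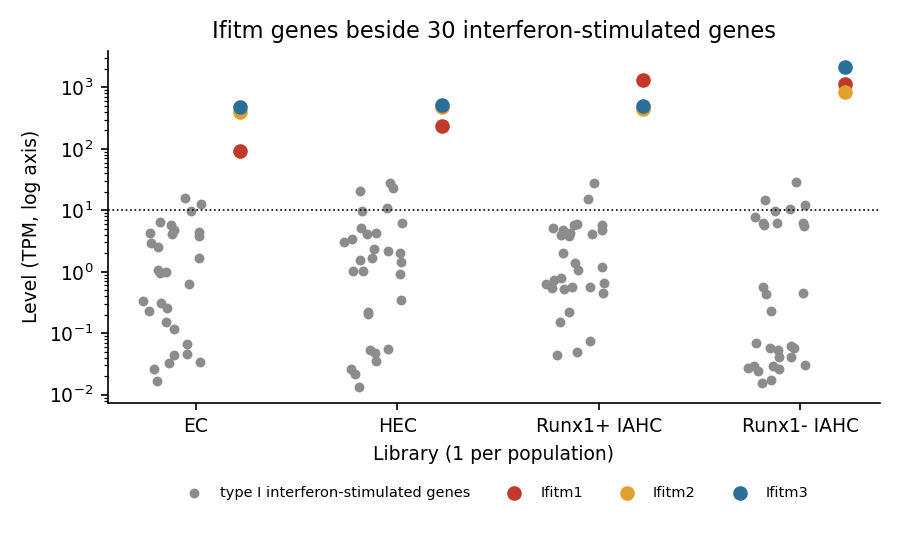
Levels in TPM on a log axis of the 3 Ifitm genes (coloured) and of 30 type I interferon-stimulated genes (grey) in each library, with the dotted line at 10 TPM. The grey points end at 28.4 TPM, below every Ifitm value.

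Genes known for induction by interferon gamma showed another order. In Runx1+ against Runx1- IAHC, 6 of 9 compared were at least 4-fold higher and 0 lower, beside 5.6% and 17.5% of all genes, and their median log2 difference was 2.14 beside -0.53 for all genes. With pseudocount 5, 4 of 9 were higher and 0 lower, beside 2.96% and 9.13% of all genes. Higher and lower were 2 and 0 of 6 in HEC against EC, 2 and 1 of 8 in Runx1+ IAHC against HEC, and 2 and 2 of 7 in Runx1- IAHC against EC, or 0 and 2 with pseudocount 5. Over all genes the shares in that order were 8.87% and 9.24%, 2.79% and 6.22%, and 20.9% and 6.39%. B2m, the light chain of class I MHC molecules, was at 715 TPM in EC, 583 TPM in HEC, 953 TPM in Runx1+ IAHC and 162 TPM in Runx1- IAHC, so that it was lowest in the library with the most Ifitm3. Psmb10, an immunoproteasome subunit, was at 12.7, 79.1, 179 and 40.0 TPM in the same order and shared its highest library with Ifitm1. Hematopoietic genes moved with this list, 14 of 16 being at least 4-fold higher in the same comparison, and their part was not tested.

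Other membrane and antiviral genes were set beside the Ifitm genes. Bst2 (tetherin), which holds budding virus at the cell surface, was at 39.8 TPM in EC, 44.2 TPM in HEC, 81.3 TPM in Runx1+ IAHC and 192 TPM in Runx1- IAHC. Its highest library was that of Ifitm2 and Ifitm3. Ly6e, a lipid-anchored protein that impairs coronavirus entry, was at 10.4, 54.8, 307 and 34.4 TPM and was highest in Runx1+ IAHC, like Ifitm1. In Runx1- IAHC against EC, 4 of 7 restriction factors were at least 4-fold higher and 0 lower, beside the 20.9% of all genes. Under median-ratio scaling 2 of 7 were, beside 12.9% of all genes. In HEC against EC, 1 of 4 restriction factors was as far higher and 0 lower, beside 8.87% and 9.24% of all genes. In Runx1+ against Runx1- IAHC, 1 of 7 was higher and 1 lower, beside 5.6% and 17.5%. In Runx1+ IAHC against HEC, 1 of 6 was higher and 0 lower, beside 2.79% and 6.22%. Among proteins that work with IFITM proteins in membranes, the tetraspanin Cd81 was at 254, 310, 143 and 666 TPM and Vapa at 160, 153, 217 and 314 TPM, both highest in Runx1- IAHC. Other genes of this list had other orders. Cd9 was at 92.6, 1423.5, 87.0 and 90.2 TPM, highest in HEC. Nedd4 was at 142, 105, 81.4 and 138 TPM, highest in EC. Osbp, at 20.1, 17.5, 15.9 and 4.95 TPM, was lowest in Runx1- IAHC. Of 6 such genes compared in Runx1- IAHC against EC, 0 were at least 4-fold apart. In HEC against EC, 1 of 7 (Cd9) was at least 4-fold higher, beside 8.87% of all genes, and 0 were lower. In Runx1+ against Runx1- IAHC, 1 of 6 (Cd81) was as far lower, beside 17.5% of all genes. In Runx1+ IAHC against HEC, 1 of 7 (Cd9) was as far lower, beside 6.22% of all genes.

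Most genes around the cluster were at lower levels. Within 100 kb on either side lay 21 other annotated genes, of which 14 were under 10 TPM in all 4 libraries and 2 reached 100 TPM. These were Gm15542, a processed pseudogene at 148 to 200.1 TPM, and Psmd13, a proteasome subunit at 19.2 to 44.3 TPM in the first 3 libraries and 108 TPM in Runx1- IAHC, both named after their values were seen. Gm7514, a processed pseudogene between Ifitm1 and Ifitm3, was at 7.17 to 15.5 TPM. A list of 19 neighbours that reaches farther along the chromosome was also compared. Of 9 at the minimum level in Runx1- IAHC against EC, 3 (Ptdss2, Rassf7 and Sct) were at least 4-fold higher, beside 20.9% of all genes. Their median log2 difference was 1.86 over the 9, beside 0.71 for all genes. Ptdss2, a phosphatidylserine synthase, was at 7.67 TPM in EC and 59.4 TPM in Runx1- IAHC. In Runx1+ IAHC against HEC, where Ifitm1 was 5.64-fold higher, 0 of 4 genes of this list were at least 4-fold apart. Of all genes, 2.79% were higher and 6.22% lower in that pair.

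The genes whose profile over the 4 libraries was most like that of each member were sought in a pool of 1749 genes. Each reached 100 TPM in at least 1 library and had a unique symbol that was not a predicted or clone name. This left out the read-sharing pseudogenes, such as Gm7676 and Gm11951, which were not ranked. Likeness was the root mean square difference of centred log2(TPM + 1), over 4 points only. Within this pool Ifitm1 had no close match on this measure, which counts the size of differences as well as their order. Its nearest was Syce2 (0.50), a protein of the synaptonemal complex, then Rrp15 (0.63), a ribosome biogenesis factor, and Cdca5 (0.67), which holds sister chromatids together. Ifitm2 was nearest to Vbp1 (0.072), a prefoldin subunit, Tomm34 (0.077), which assists mitochondrial protein import, and Cul1 (0.087), a ubiquitin ligase scaffold. Ifitm3 was nearest to Alad (0.084), an enzyme of heme synthesis, Calm2 (0.089), which encodes calmodulin, and Slc35a4 (0.092). Calm2 was at 932 TPM in EC, 927 TPM in HEC, 1056 TPM in Runx1+ IAHC and 3911 TPM in Runx1- IAHC, so that it too was high in the last library alone. The members were not each other's nearest genes. Ifitm3 came at place 556 for Ifitm2 (0.52), and Ifitm3 and Ifitm2 came at places 629 and 717 for Ifitm1 (1.37 and 1.40). With Pearson's correlation as the measure, 1 of the 3 nearest genes was shared for Ifitm2 (Tomm34) and 0 for Ifitm1 and Ifitm3. Ifitm1 was then nearest to Ranbp1 (0.9995), at 514 TPM in EC, 726 TPM in HEC, 1487 TPM in Runx1+ IAHC and 1358 TPM in Runx1- IAHC.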

How the data were processed

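RNA was measured in 4 libraries of cells sorted from the embryonic day 11 AGM, grouped by the labels, 1 per population. By the published methods, cDNA of full length was sequenced as single reads of 51 bases without strand, aligned with HISAT2 (version 2.0.4, submitters' processing notes) to GRCm38 and counted in union mode on GENCODE genes. The authors deposited TPM values on a linear scale. Multi-copy reads are placed uncertainly. No value was 0, as if 1 read had been added to each gene. Multiplied by exonic length from a later GENCODE release, TPM gave whole reads within 0.01 for 49371 genes (96.4%) in all 4 libraries, and these reads, less 1, gave folds and intervals. The TPM of the listed genes summed to 942562 to 962265 per library. Another 11 column names in 2 further sheets match no sample and were not used.

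Differences are of log2(TPM + 1), a scale that understates low genes, and genes reaching 10 TPM in the higher of 2 libraries were counted when 4-fold apart. Members and the 18 lists were chosen with earlier results of these data known. Named were the Ifitm genes, list members by size of level or difference (interferon lists: those at 100 TPM or more), and the 3 genes most like each member. Ifnar1, Ifnar2, Ifngr1, Irf1, Irf7, Isg15, Osbp, Ranbp1 and the read-sharing pseudogenes were named after their values were seen. Some genes that the rule names are not reported here. Alternatives were pseudocount 5, minimum 1 or 50 TPM, 2 other scalings and Pearson correlation, and, chosen after seeing the data, added copies (also Gm7676 to Ifitm3) and other gene lengths. Calculations were tested on simulated data. Python 3.11.15, pandas 2.3.3, numpy 2.4.6, scipy 1.17.1, biopython 1.88 and matplotlib 3.10.9 were used.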

Additional observations from a re-analysis of the deposited data

Results flagged for a closer look

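In 3 results the Runx1+ library differed from the Runx1- library in opposite directions in ckit- and in ckit+ cells. Ifitm3 was 0.11 higher in HEC than in EC on the log2 scale but 2.09 lower in Runx1+ than in Runx1- IAHC, and the contrasts were -2.20 apart. Ifitm2 was 0.30 higher and 0.91 lower, which is -1.20 apart. The summed Ifitm level was 0.36 higher and 0.85 lower, which is -1.21 apart. With 1 library per population the difference was not tested. Ifitm2 and the sum had opposite directions under the 4 alternatives run, but the higher value in HEC came close to no difference for Ifitm2, at 0.10 under median-ratio scaling and 0.03 without mitochondrial, ribosomal protein and hemoglobin genes. Ifitm3 was lower in both contrasts under median-ratio scaling (-0.0875 and -1.98) and without those genes (-0.16 and -1.96). Primordial germ cell genes summed to 7532 TPM in Runx1- IAHC and 47.1 TPM in Runx1+ IAHC, and their part was not tested.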

How the results depend on the processing

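No paired analysis was possible because each population has 1 library, and for the same reason no library could be left out. Each Ifitm value rests on at least 842 reads, but these are amplified copies from few cells in some libraries, so the sampling of cells and the spread between samples are unknown. The summed Ifitm level kept its direction in the 4 comparisons under each alternative. Its log2 difference in HEC against EC was 0.36, and 0.16 under median-ratio scaling over 4525 genes and 0.0937 after leaving out 426 mitochondrial, ribosomal protein and hemoglobin genes. In Runx1+ against Runx1- IAHC it was -0.85, and -0.74 and -0.71. In Runx1+ IAHC against HEC it was 0.88, and 0.68, 0.92 and, with pseudogene copies added, 0.80. In Runx1- IAHC against EC it was 2.09, and 1.58, 1.73 and 2.00. Of 52 alternative values of single members, 4 turned round. Ifitm3 in HEC against EC went from 0.11 to -0.0875 under median-ratio scaling and -0.16 without the abundant genes, and in Runx1+ IAHC against HEC from -0.0341 to 0.00644 without them and to 0.147 with reads of Gm7676 added. The cause was not tested.

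Genes at least 4-fold apart numbered 1411 in HEC against EC, 2013 in Runx1+ against Runx1- IAHC, 656 in Runx1+ IAHC against HEC and 2438 in Runx1- IAHC against EC. With pseudocount 5 they numbered 792, 1055, 344 and 1306. With a minimum of 50 TPM, which tests fewer genes, they numbered 528, 710, 246 and 1044. With a minimum of 1 TPM they numbered 2149 and 3142 in the first and second of these comparisons, 957 and 3528 in the others. Median-ratio scaling moved the share of higher genes among them from 76.6% to 52.2% in Runx1- IAHC against EC.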
